A study of Mus musculus with 9 samples.

Results

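The genes described here are 31 of the enzymes and regulators with which a cell makes cholesterol and fatty acids, out of 54232 genes counted by RNA-seq. They were listed by gene name from the pathway, with earlier results of these data known, and all 31 were found in the count table and passed the filter on low counts in every comparison. They fall into 4 groups by role, namely 8 enzymes of the mevalonate branch, 11 enzymes from squalene to cholesterol, 6 regulators or sterol carriers, and 6 enzymes of fatty acid synthesis. Poly(A) RNA came from naïve mouse embryonic stem cells (mESCs) and from primed epiblast stem cells (mEpiSCs) converted from them, with 2 libraries of each state at passage 5 (P5) and 2 at passage 15 (P15), and from 1 library of mouse embryonic fibroblasts (MEFs). All mESCs and mEpiSCs were C57 x CBA and, per the study's methods, of the OG2 line, which carries GFP driven by the distal *Oct4* promoter. Naïve cells were kept in S/L medium (serum and leukemia inhibitory factor) and primed cells in F/A medium (Fgf2 and Activin A with N2, B27 and a little serum replacement), both on inactivated MEF feeders. The media differ in serum and growth factors, so that medium and state cannot be told apart. Likewise, passage and time of harvest cannot be told apart. All libraries came from 1 line, and nothing says that the 2 libraries of a group came from separate conversions, so p-values measure the spread between these libraries.

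Cholesterol is built from acetyl-CoA. A first set of enzymes makes mevalonate and from it the isoprenoid farnesyl diphosphate, and a second set joins farnesyl units to squalene, closes its rings and trims the product to cholesterol. The transcription factors SREBP-1 and SREBP-2, products of *Srebf1* and *Srebf2*, drive these genes when membranes are short of sterol: the escort protein Scap then carries them to the Golgi for cleavage, and when sterol is ample Insig proteins hold Scap back in the endoplasmic reticulum. SREBP-1 is best known for fatty acid genes and SREBP-2 for cholesterol genes. Stem cells in culture need both kinds of lipid for new membranes, and take part of it from the medium.

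The promoters of these genes are known for short sterol elements, which SREBPs bind, beside CCAAT and GC boxes, the sites of the partner factors NF-Y and Sp1. RefSeq promoter windows on GRCm38.p6, from 250 bases before to 50 bases after a transcript start, were matched by symbol for 25 of the 31 genes (33 windows). No entry was matched for *Fdps*, *Fdft1*, *Sqle*, *Stard4*, *Scd1* and *Scd2*. The 8 stretches printed here end before the start and stand for the 4 roles and for the different patterns described further on: *Hmgcs1*, *Mvk*, *Mvd*, *Lss* and *Nsdhl* rose in primed cells at P15, *Insig1* and *Fasn* turned from lower to higher in primed cells between the passages, and *Ggps1* did neither. Capitals mark TCACNCCAC (a sterol element), CCAAT and GGGCGG (a GC box) on either strand, and each sequence reads 5′ to 3′ on the strand of its gene.
*Hmgcs1* (chr13:119690121-119690350, + strand): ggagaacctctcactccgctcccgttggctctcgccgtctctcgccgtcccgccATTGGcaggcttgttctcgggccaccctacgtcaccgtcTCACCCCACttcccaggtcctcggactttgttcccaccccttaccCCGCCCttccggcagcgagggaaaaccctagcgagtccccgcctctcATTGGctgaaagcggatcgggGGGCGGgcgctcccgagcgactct
*Mvk* (chr5:114444039-114444268, + strand): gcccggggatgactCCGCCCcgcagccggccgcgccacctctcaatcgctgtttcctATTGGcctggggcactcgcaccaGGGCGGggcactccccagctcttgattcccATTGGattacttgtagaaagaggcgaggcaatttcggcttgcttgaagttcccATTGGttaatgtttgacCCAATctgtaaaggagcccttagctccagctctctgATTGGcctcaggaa
*Mvd* (chr8:122443423-122443652, - strand): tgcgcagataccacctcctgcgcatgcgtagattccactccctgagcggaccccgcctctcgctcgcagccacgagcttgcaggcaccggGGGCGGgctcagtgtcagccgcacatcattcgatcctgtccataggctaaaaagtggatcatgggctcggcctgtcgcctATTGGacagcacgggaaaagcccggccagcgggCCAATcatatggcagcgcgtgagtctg
*Lss* (chr10:76531375-76531587, + strand): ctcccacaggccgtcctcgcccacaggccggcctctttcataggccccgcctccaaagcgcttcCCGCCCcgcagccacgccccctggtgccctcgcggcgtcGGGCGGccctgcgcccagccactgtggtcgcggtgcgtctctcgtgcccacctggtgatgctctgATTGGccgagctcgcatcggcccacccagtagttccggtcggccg
*Nsdhl* (chrX:72918291-72918520, + strand): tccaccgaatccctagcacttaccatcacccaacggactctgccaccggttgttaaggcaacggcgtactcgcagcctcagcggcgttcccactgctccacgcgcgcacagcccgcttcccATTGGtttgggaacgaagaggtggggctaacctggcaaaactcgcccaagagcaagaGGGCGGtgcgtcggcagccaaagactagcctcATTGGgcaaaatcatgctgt
*Insig1* (chr5:28071182-28071362, + strand): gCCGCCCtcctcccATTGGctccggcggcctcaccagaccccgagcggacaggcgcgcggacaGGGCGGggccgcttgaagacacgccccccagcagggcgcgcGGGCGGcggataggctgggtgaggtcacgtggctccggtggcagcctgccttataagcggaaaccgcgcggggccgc
*Fasn* (chr11:120824548-120824777, - strand): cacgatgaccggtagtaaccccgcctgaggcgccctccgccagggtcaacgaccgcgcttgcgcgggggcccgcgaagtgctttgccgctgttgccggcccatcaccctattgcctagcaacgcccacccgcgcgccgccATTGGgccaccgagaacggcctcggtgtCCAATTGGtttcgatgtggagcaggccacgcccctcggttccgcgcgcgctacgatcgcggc
*Ggps1* (chr13:14063489-14063718, - strand): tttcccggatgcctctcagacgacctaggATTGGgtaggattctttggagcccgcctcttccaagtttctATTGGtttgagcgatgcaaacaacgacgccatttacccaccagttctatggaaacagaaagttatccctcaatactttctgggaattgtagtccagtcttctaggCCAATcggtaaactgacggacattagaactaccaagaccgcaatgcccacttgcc

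The sterol element TCACNCCAC was found in 1 of the 33 windows, that of *Hmgcs1*, 137 bases before the start, and in 1.24% of all 32851 RefSeq windows. Its core CACNCCAC, which the longer form contains, was found in 3 windows, those of *Acat2*, *Hmgcs1* and *Insig1*, and in 6.24% of all windows. In the *Insig1* window it lies outside the stretch printed. CCAAT was found in 22 of the 33 windows (21 of 25 genes), against 37.4% of all windows. *Mvk* held 5 of them, while the printed stretch of *Lss* held 1. GGGCGG was found in 24 of the 33 windows (20 of 25 genes), against 35.7% of all windows and 60.9% of the windows of genes tested at P15. The stretch of *Ggps1*, which passed no test, held 3 CCAAT boxes and no GC box. These are matches of letters only.

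Total counts per library were 14378051 to 20985136 in naïve and primed cells and 25646547 in MEFs. Levels are in CPM, a gene's count relative to the size of its library, after edgeR's TMM scaling over the 9 libraries. Folds and p-values come from edgeR's quasi-likelihood test on all genes, a gene is called at an adjusted p (Benjamini-Hochberg over all genes tested) under 0.01, and positive log2 fold changes mean higher in primed cells or at P15. Markers matched the labels: all 5 naïve markers were lower and all 5 primed markers higher in primed cells at both passages. The primed cells of the 2 passages differed from each other, however. *Zfp42*, a naïve marker, was at 17.6 and 16.97 CPM in the primed P5 libraries and at 0.230 and 0.227 CPM in the primed P15 libraries, against 206 to 232 CPM in naïve libraries. *Pou5f1*, the Oct4 gene common to both states, was at 211 and 211 CPM in primed cells at P5 and at 612 and 583 CPM at P15, against 710 to 760 CPM in naïve cells. Not all markers moved this way with passage in primed cells. Means went from 163.2 to 145.5 CPM for *Sox2* (both states) and from 47.9 to 53.9 CPM for *Klf4* (naïve). *Otx2* (primed) went from 162.9 to 78.9 CPM. Of the 5 naïve markers 0 were called higher with passage and 4 lower, against 24.3% and 22.8% of all genes tested. Of the 5 primed markers 3 were higher and 1 lower, and of the 3 genes of both states 2 were higher and 1 lower. RNA of fibroblast markers was present in every naïve and primed culture, all grown on feeders. The 17 fibroblast markers together were at 6708 and 6789 CPM in naïve P5, 4096 and 4001 CPM in primed P5, 12493 and 13173 CPM in naïve P15, and 10878 and 10481 CPM in primed P15, against 68711 CPM in MEFs. None of the 17 was at 0 in any library. In primed P15 *Dcn* was at 341% and 354% of the MEF library, *Lum* at 202% and 218% and *Mmp2* at 118% and 112%. The other markers were below the MEF level there. The sum thus cannot be read as an amount of feeder RNA. In bulk RNA, fewer cells of a type and less RNA per cell cannot be told apart.

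Cholesterol synthesis genes were nearly level between the states at P5 and about 2-fold higher in primed cells at P15. Of the 19 enzymes of both branches, 1 was called higher in primed cells at P5 and 18 at P15, and none was called lower at either passage. Their median log2 fold change was 0.02 at P5 and 1.15 at P15, while the median over all genes tested was 0.0078 and −0.0039. In the same comparisons 31.2% of the 16482 genes tested at P5 were called higher and 31.1% lower, and 28.2% of the 15733 genes tested at P15 were called higher and 28.4% lower. At P15, 14 of the 19 were at least 2-fold higher, against 12.2% of all genes tested, and 11.0% of all genes were at least 2-fold lower. None of the 19 reached 2-fold at P5, where 13.5% of all genes were at least 2-fold higher and 8.85% at least 2-fold lower.

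**Figure D1:**
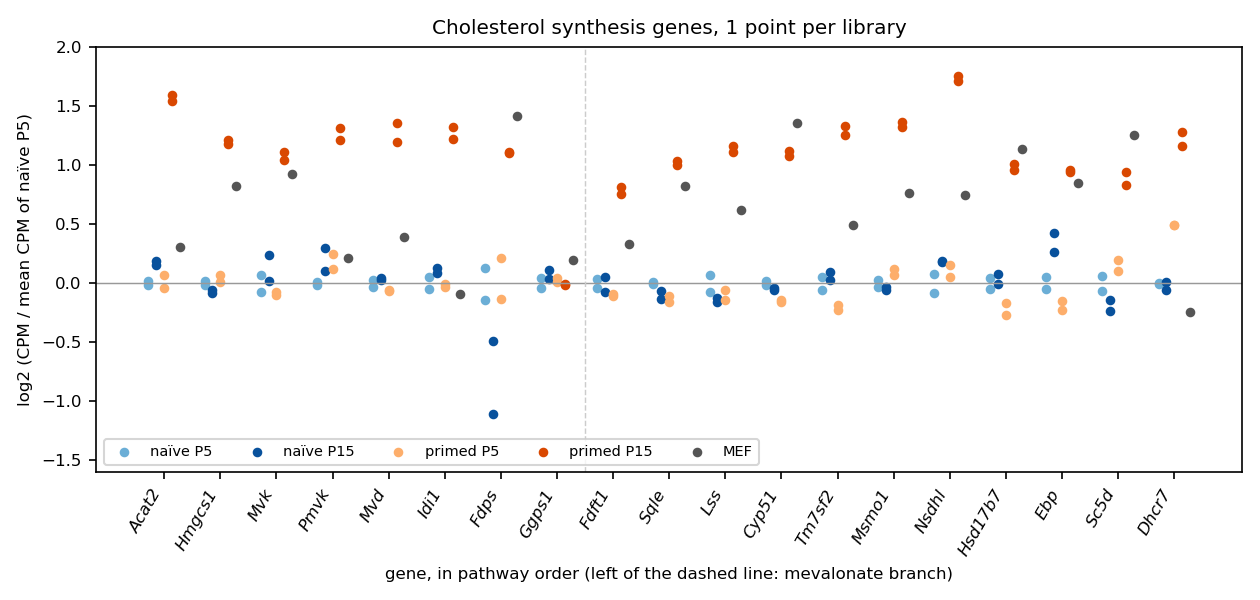
Level of the 19 cholesterol synthesis genes in each library, on the y axis as log2 of its CPM over the mean of the naïve P5 libraries, with genes on the x axis in pathway order and 1 point per library. The 2 primed P15 points stand above all other naïve and primed points for 18 genes, *Ggps1* being the exception, and the single MEF point is above both primed P15 points for *Fdps*, *Ggps1*, *Cyp51*, *Hsd17b7* and *Sc5d*.

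In the mevalonate branch, *Hmgcs1* (ENSMUSG00000093930, GRCm38 chromosome 13, 119690379 to 119708260) makes HMG-CoA, the precursor of mevalonate. It was at 259.7 and 253.8 CPM in naïve P5, 258 and 270.2 CPM in primed P5, 243 and 247 CPM in naïve P15, 579.9 and 596 CPM in primed P15, and 455 CPM in MEFs. The naïve and primed libraries overlapped at P5, and at P15 both primed libraries stood far above all other stem cell libraries. On the log2 scale primed cells differed by 0.07 (SE, the standard error, 0.04, adjusted p = 0.0802) at P5 and by 1.25 (SE 0.06, adjusted p = 6.1e-21) at P15. *Acat2*, whose enzyme joins acetyl-CoA units ahead of it, was at 88.7 and 86.7 CPM in naïve P5, 85.5 and 91.8 CPM in primed P5, 100.02 and 97.8 CPM in naïve P15, and 255 and 265 CPM in primed P15. It too overlapped at P5 and was 2.61-fold higher in primed cells at P15. Its transcript shares 97.7% of its bases over 1477 bases with *Acat3*, and the treatment of multi-mapping reads in counting is not given in the sources used here, and *Acat3* had at most 120 counts in a library. It also shares 98.7% of bases over 445 bases with *Tcp1*, which had up to 11608 counts, so that part of its count is uncertain.

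*Mvk* and *Pmvk*, the kinases that charge mevalonate, and *Mvd*, the decarboxylase that makes the first isoprenoid, moved alike. *Mvd* (chromosome 8, 122433601 to 122443422) was at 53.9 and 51.5 CPM in naïve P5 and 50.4 and 50.5 CPM in primed P5. At P15 it was at 53.7 and 54.2 CPM in naïve cells and 135 and 121 CPM in primed cells. The log2 difference was −0.03 (SE 0.06) at P5 and 1.23 (SE 0.07, adjusted p = 1.49e-17) at P15. For *Mvk* the P15 value was 0.93 and for *Pmvk* 1.05, both called. Neither was called at P5, where *Pmvk* had a log2 fold change of 0.22 with an adjusted p of 0.0148. *Idi1*, the isomerase of these isoprenoids, was 2.22-fold higher in primed cells at P15 and differed by 0.02 on the log2 scale at P5. It matches the processed pseudogene *Gm13502* over 684 bases at 100% identity, to which up to 374 counts went in a library.

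The branch divides at *Fdps* and *Ggps1*. *Fdps* makes farnesyl diphosphate, from which both sterols and longer isoprenoids arise. It was at 4.08 and 3.36 CPM in naïve P5, 4.32 and 3.38 CPM in primed P5, 2.65 and 1.73 CPM in naïve P15, 8.03 and 8.01 CPM in primed P15, and 9.95 CPM in MEFs. It was the lowest of the 31 genes per length in naïve P5, at 0.884 CPM per kb, and has 4 near-identical processed pseudogenes and a same-strand gene, *Gm43738*, over 26.7% of its exon bases, so that its counts are uncertain. Its log2 fold change of 1.88 at P15 had the widest standard error of the 31, 0.24. *Ggps1* (chromosome 13, 14050659 to 14063488) makes the geranylgeranyl units that are attached to small GTPases, and so leads away from cholesterol. It was at 33.0 and 34.9 CPM in naïve P5, 34.9 and 34.3 CPM in primed P5, 34.8 and 36.7 CPM in naïve P15, 33.7 and 33.7 CPM in primed P15, and 38.9 CPM in MEFs. All 9 libraries thus lay between 33.0 and 38.9 CPM. For *Ggps1* the log2 fold change was 0.06 at P5 and −0.10 at P15 (95% interval −0.28 to 0.08), and it was the only gene of the 19 not called at P15.

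All 11 listed enzymes from squalene to cholesterol were higher in primed cells at P15, by log2 fold changes of 0.60 to 1.54. *Sqle*, the epoxidase that adds the first oxygen, was at 112 and 111 CPM in naïve P5 and 104 and 99.9 CPM in primed P5. At P15 it was at 102 and 107 CPM in naïve cells and 229 and 224 CPM in primed cells. Both primed libraries were slightly below the naïve ones at P5 and far above them at P15, by −0.10 (SE 0.04, adjusted p = 0.0463) and 1.11 (SE 0.06, adjusted p = 5.17e-18) on the log2 scale. *Lss*, which closes the ring system of lanosterol, was at 76.7 and 69.3 CPM in naïve P5, 70.2 and 66.2 CPM in primed P5, 65.6 and 67.1 CPM in naïve P15, and 158 and 163 CPM in primed P15. Its groups overlapped at P5 and were apart 2.4-fold at P15. *Cyp51*, which takes a methyl group off lanosterol, was 2.21-fold higher at P15, but was higher still in the MEF library, at 334 CPM against 275 and 284 CPM in primed P15.

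*Msmo1*, *Nsdhl* and *Hsd17b7* act in turn to remove the next methyl groups. *Nsdhl* (chromosome X, 72918557 to 72958514) had the largest change of the sterol genes after *Fdps*. It was at 27.9 and 25.0 CPM in naïve P5, 29.4 and 27.4 CPM in primed P5, 30.1 and 29.9 CPM in naïve P15, and 86.7 and 89.2 CPM in primed P15, with 44.4 CPM in MEFs. The primed P15 libraries held about 3 times the level of the other stem cell libraries, which is 1.54 on the log2 scale (SE 0.08, adjusted p = 2.4e-19) against naïve P15. *Msmo1* was 2.6-fold and *Hsd17b7* 1.91-fold higher at P15, neither called at P5. *Ebp*, the sterol isomerase, had the smallest called change, 0.60, and was also the sterol gene with the highest log2 fold change between the passages in naïve cells, 0.34 (adjusted p = 0.0469, not called).

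*Dhcr7*, the reductase of the last step by one route, was the one sterol enzyme that was called at P5. It was at 63.7 and 64.2 CPM in naïve P5 and 90.3 and 90.1 CPM in primed P5, which is 0.53 (SE 0.05, adjusted p = 1.01e-10) on the log2 scale. At P15 it was at 61.4 and 64.5 CPM in naïve cells and 155 and 143 CPM in primed cells, 1.23 on the log2 scale. With 53.9 CPM, the MEF library was below every stem cell library. The remaining enzymes were called at P15 with log2 fold changes of 0.78 (*Fdft1*, which makes squalene), 1.22 (*Tm7sf2*, a sterol reductase) and 1.06 (*Sc5d*, a sterol desaturase). *Fdft1* shares exon bases with *Ctsb* on the other strand and *Tm7sf2* with *Vps51* on the same strand. Whether counting used strand is not stated, so part of these counts could belong to the neighbour. The 18 genes not called at P5 had 95% intervals from −0.41 to 0.53 on the log2 scale, 17 of them wholly within 0.5 of 0. The share of all genes with an unadjusted p under 0.05 is not given here, and 6 of the 18 had one. Of these, *Pmvk* was called without primed P5 replicate 2 (0.30, adjusted p = 0.00988) and *Cyp51* without naïve P5 replicate 1 (−0.16, adjusted p = 0.00482).

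**Figure D2:**
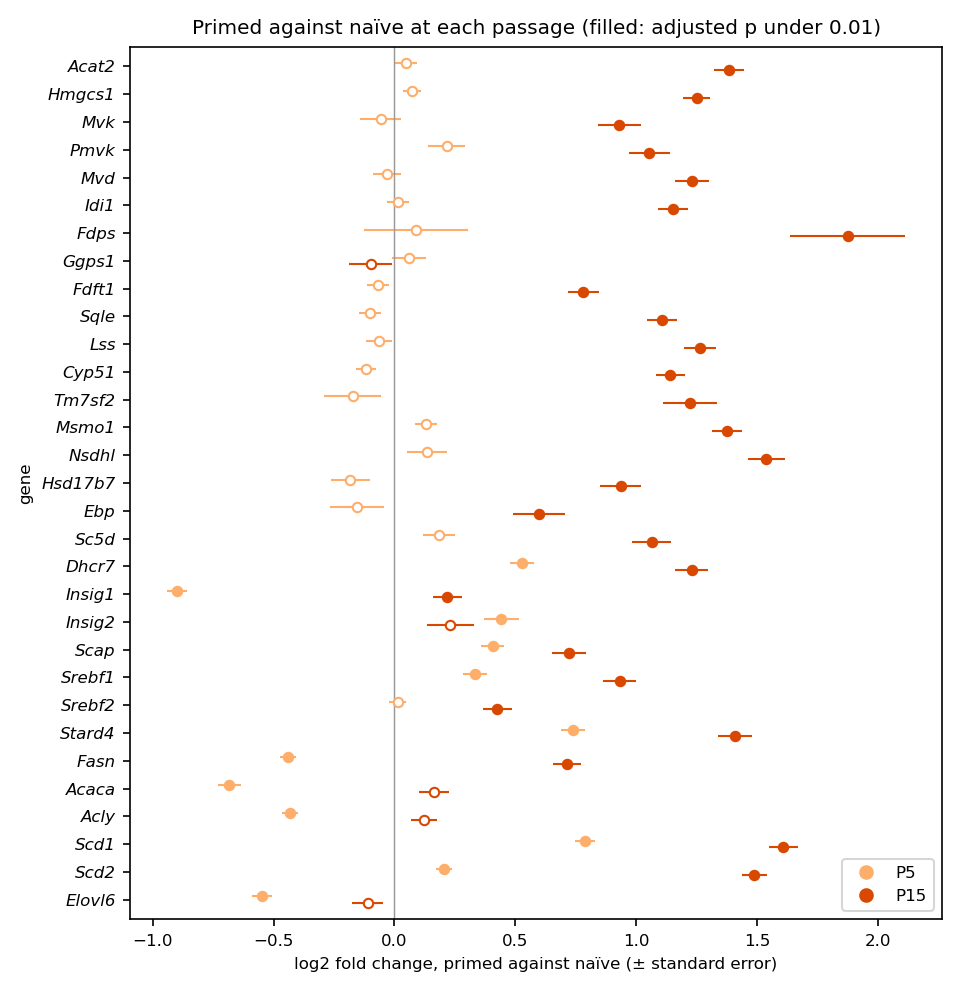
Log2 fold change of primed against naïve cells on the x axis for each of the 31 genes on the y axis, at P5 (light) and P15 (dark), with bars of 1 standard error and filled points where the adjusted p was under 0.01. Cholesterol genes other than *Dhcr7* (0.53) lie between −0.18 and 0.22 at P5 and, apart from *Ggps1*, between 0.60 and 1.88 at P15, while *Insig1*, *Fasn*, *Acaca*, *Acly* and *Elovl6* lie below 0 at P5.

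The regulators were called in both directions at P5. There, 4 of the 6 were called higher (*Insig2*, *Scap*, *Srebf1* and *Stard4*) and 1 lower (*Insig1*), against 31.2% and 31.1% of all genes tested. At P15, 5 were higher and 0 lower, against 28.2% and 28.4%. *Insig1* (chromosome 5, 28071363 to 28078662), which holds Scap back and is itself a target of SREBPs, was at 189 and 190.4 CPM in naïve P5 and 100.4 and 98.4 CPM in primed P5. At P15 it was at 168 and 169.8 CPM in naïve cells and 193 and 203 CPM in primed cells, with 216 CPM in MEFs. Primed cells thus held less of it at P5, with −0.90 on the log2 scale (SE 0.04, adjusted p = 7.51e-18), and slightly more at P15, 0.22 (SE 0.06, adjusted p = 0.00174). The P15 call was lost without naïve P15 replicate 1 (log2 fold change 0.19, adjusted p = 0.0335) and without naïve P15 replicate 2 (0.20, adjusted p = 0.0254). *Insig2*, its paralog, went the other way in primed cells, from 37.6 and 37.6 CPM at P5 to 28.9 and 29.5 CPM at P15. It was the only one of the 31 genes that fell with passage in primed cells, by 0.39 on the log2 scale (adjusted p = 0.000117).

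*Stard4*, a carrier that moves cholesterol between membranes and is also an SREBP target, was at 59.7 and 58.7 CPM in naïve P5, 96.4 and 96.6 CPM in primed P5, 59.95 and 54.8 CPM in naïve P15, and 149.7 and 157 CPM in primed P15. It rose in 2 steps, with log2 fold changes of 0.74 (SE 0.05) at P5 and 1.41 (SE 0.07) at P15, both called. *Srebf1* was at 77.8 and 72.4 CPM in naïve P5, 91.4 and 93.8 CPM in primed P5, 69.3 and 71.8 CPM in naïve P15, and 143 and 128 CPM in primed P15, against 148 CPM in MEFs. The state difference was 0.33 on the log2 scale at P5 and 0.93 at P15, both called, with the 2 primed P15 libraries well apart from each other. *Srebf2*, the most abundant regulator by CPM, was at 337 and 346 CPM in naïve P5, 341 and 333 CPM in primed P5, 279 and 300.4 CPM in naïve P15, and 409 and 375 CPM in primed P15. Its state difference at P15, 0.43 on the log2 scale, stands on a fall in naïve cells with passage (−0.24, adjusted p = 0.00303) and a rise in primed cells (0.19, adjusted p = 0.00209). The naïve call was lost without naïve P5 replicate 2 (−0.22, adjusted p = 0.0183), and the primed call without primed P5 replicate 1 (0.18, adjusted p = 0.0317), without primed P5 replicate 2 (0.15, adjusted p = 0.0919) and without primed P15 replicate 1 (0.12, adjusted p = 0.0132). *Scap* was 1.33-fold higher in primed cells at P5 and 1.65-fold higher at P15. Its rise with passage in primed cells, 0.15 on the log2 scale, was not called, and was called without primed P15 replicate 2 (0.22, adjusted p = 0.000394). These are levels of RNA, and cleavage of the SREBP proteins was not measured.

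The 6 fatty acid genes split by step. Those that make palmitate and lengthen it were lower in primed cells at P5, and those that desaturate it were higher. *Acly* supplies cytosolic acetyl-CoA, *Acaca* makes malonyl-CoA, *Fasn* builds palmitate and *Elovl6* lengthens it. At P5 the log2 fold changes were −0.43, −0.68, −0.44 and −0.55, in that order, all called, with both primed libraries below both naïve libraries for each. *Fasn* (chromosome 11, 120805846 to 120824547) was at 591 and 590.2 CPM in naïve P5, 436 and 416 CPM in primed P5, 526 and 542 CPM in naïve P15, and 935 and 831 CPM in primed P15, with 363 CPM in MEFs. It turned from lower to higher, from −0.44 on the log2 scale (SE 0.03, adjusted p = 1.71e-12) at P5 to 0.71 (SE 0.06, adjusted p = 1.51e-13) at P15. *Acaca* went from 79.7 and 79.0 CPM in primed P5 to 131 and 133 CPM in primed P15, which was near the 114 and 119 CPM of naïve P15 (log2 fold change 0.16, adjusted p = 0.0218, not called). *Acly* was at 558 and 540 CPM in primed P15 against 499.7 and 502 CPM in naïve P15 (0.12, not called), and *Elovl6* at 142 and 136 CPM against 153 and 146 CPM (−0.11, not called). In a fit of all 8 libraries *Acly* (0.12, adjusted p = 0.00855) and *Acaca* (0.17) passed the threshold at P15. *Acaca* has a processed pseudogene, *Gm5182*, that matches 64.3% of its transcript, with at most 29 counts.

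*Scd1* and *Scd2*, the desaturases that make monounsaturated fatty acids, had the smallest adjusted p-values of the 31 at P15. *Scd1* was at 98.1 and 102 CPM in naïve P5, 170.5 and 167 CPM in primed P5, 108 and 109 CPM in naïve P15, and 332 and 336 CPM in primed P15, with 228 CPM in MEFs. Primed cells exceeded naïve cells by 0.79 (SE 0.04) on the log2 scale at P5 and 1.61 (SE 0.06, adjusted p = 2.53e-23) at P15. *Scd1* thus rose at both steps. *Scd2* was at 715 and 693 CPM in naïve P5, 802 and 787 CPM in primed P5, 718 and 739 CPM in naïve P15, and 2064 and 2058 CPM in primed P15. The MEF library, at 1950 CPM, was close to primed P15 and far above the other stem cell libraries. Its log2 fold change was 0.21 at P5 and 1.49 (adjusted p = 3.75e-24) at P15, both called. Both genes lie on chromosome 19, on opposite strands, and share 95.5% of bases over 623 bases, so reads of that stretch could be assigned to either. Per length, *Scd2* was the highest of the 31 genes in every group, with 129 CPM per kb in naïve P5 and 377 CPM per kb in primed P15.

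**Figure D3:**
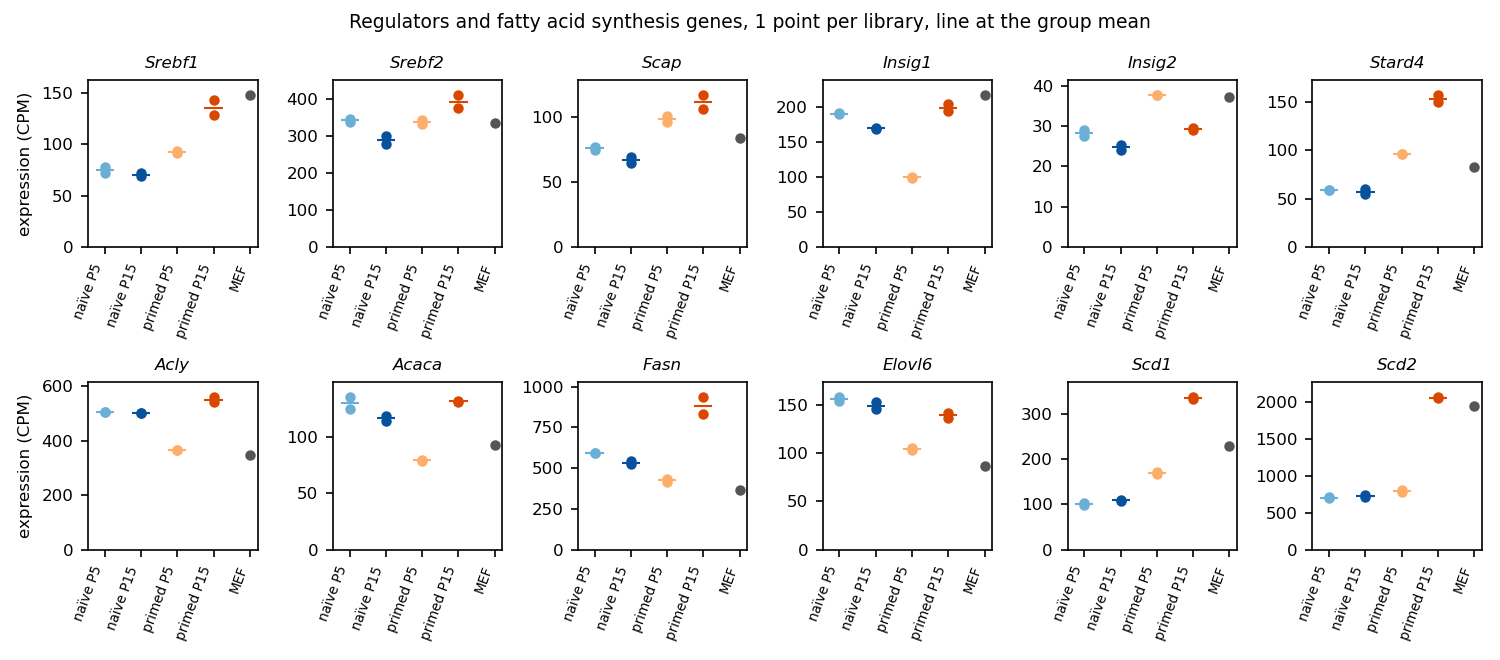
CPM on the y axis, from 0, of the 6 regulators (upper row) and the 6 fatty acid synthesis genes (lower row) in each library, grouped on the x axis by state and passage, with a line at the mean of each pair. *Insig1*, *Acly*, *Acaca*, *Fasn* and *Elovl6* are lowest in primed P5 among the stem cells, and *Scd1*, *Scd2* and *Stard4* are highest in primed P15.

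Counted over all 31 genes, in primed cells 7 were higher, 5 lower and 19 not called at P5, and 26 were higher, 0 lower and 5 not called at P15. Over all genes tested, 31.2% were higher and 31.1% lower at P5, and 28.2% and 28.4% at P15. With the added threshold of 2-fold, 0 of the 31 were called at P5 and 17 were higher at P15. The 5 not called at P15 were *Ggps1*, *Insig2*, *Acly*, *Acaca* and *Elovl6*. By edgeR's test, 29 had an unadjusted p under 0.05 in the higher direction at P15 and 0 in the lower, and DESeq2's Wald test called 0 lower as well. The shares of all genes with an unadjusted p under 0.05 are not given here. Of the 31, 6 were called higher at both passages, 18 were higher at P15 without a call at P5, 2 went from lower to higher (*Insig1* and *Fasn*), 3 went from lower to not called (*Acly*, *Acaca* and *Elovl6*), 1 from higher to not called (*Insig2*) and 1 was called at neither (*Ggps1*). At P15 both primed libraries lay above both naïve libraries for 29 of the 31 genes, against 41.7% of all genes tested. At P5 this held for 10, against 41.0%, and for 13 genes both primed libraries lay below, against 43.6%.

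Between the passages the genes moved in primed cells. There 28 of the 31 genes rose with passage, against 24.3% of the 15957 genes tested, and 1 fell, against 22.8%. The median log2 fold change was 1.02. In naïve cells 0 of the 31 rose and 1 fell (*Srebf2*), against 4.21% and 5.01% of the 15683 genes tested, and the median was −0.04. In naïve cells edgeR gave 4 of the 31 an unadjusted p under 0.05 in the higher and 9 in the lower direction, and DESeq2's Wald test called 0 higher. The shares of all genes at that unadjusted threshold are not given here, and those above are for calls. Among the 19 sterol enzymes, 18 rose in primed cells, by log2 fold changes of 0.69 (*Dhcr7*) to 1.60 (*Nsdhl*), and for all but *Fdps* and *Ebp* the 95% interval of the naïve change lay within 0.5 of 0. All 6 fatty acid genes rose in primed cells, by 0.39 (*Elovl6*) to 1.34 (*Scd2*), and none was called in naïve cells. Since each passage comparison uses libraries of the state comparisons, these are not separate evidence.

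In a test of the difference itself, the log2 fold change between primed and naïve cells was higher at P15 than at P5 for 29 of the 31 genes, against 13.3% of the 16926 genes tested, and lower for 0, against 10.8%. The differences of the log2 fold changes had a median of 1.004 and were largest for *Fdps* (1.80), *Nsdhl* (1.42) and *Tm7sf2* (1.41). *Scap* had the smallest called difference, 0.33 (adjusted p = 0.00265), and its adjusted p was between 0.0127 and 0.0369 without naïve P5 replicate 1, primed P5 replicate 1 or 2, naïve P15 replicate 1 or primed P15 replicate 1, and 0.0109 by DESeq2. *Ggps1* and *Insig2* were not called. Library size alone in place of TMM moved the median of all genes by 0.20 at P5, 0.10 at P15 and −0.13 from P5 to P15 in primed cells. Under it 16 of the 31 genes were called higher at P5, where 6810 of all 16482 genes tested were. At P15 it was 29, where 5188 of all 15733 genes tested were. The share of higher calls among all calls at P5 went from 50.1% to 65.8%. The small P5 differences of the sterol genes thus depend on the scaling. The median change of the 31 genes with passage in primed cells went from 1.02 to 0.89 on the log2 scale. Their median difference between the passages went from 1.004 to 0.89. For the passage change in primed cells the share of higher calls went from 51.5% to 34.2%, and for the difference between the passages from 55.0% to 35.2%. There 27 and 28 of the 31 genes were still called higher, against 2554 of 15957 and 1402 of 16926 genes tested.

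Fibroblast markers also moved with passage. Of the 17 markers, 10 rose and 1 fell from P5 to P15 in naïve cells, and 14 rose and 1 fell in primed cells, against 4.21% and 5.01% of all genes in naïve cells and 24.3% and 22.8% in primed cells. Between the states, primed cells held more of 4 and less of 10 at P5, and more of 6 and less of 6 at P15, against 31.2% and 31.1% of all genes at P5 and 28.2% and 28.4% at P15. Their median level was 11.4% and 11.0% of the MEF library in naïve P5, 7.96% and 7.46% in primed P5, 18.3% and 18.4% in naïve P15, and 22.7% and 19.9% in primed P15. Of the 31 genes, 24 were higher in MEFs than in naïve P5, and 8 were higher in MEFs than in primed P15. These counts rest on the single MEF library without a test, and the matching shares of all genes are not given here. With that share of the MEF counts taken off each library, 26 of the 31 were called higher at P15, where 3789 of all 14913 genes tested were. Their median log2 fold change was 1.34, against 1.06 without subtraction. At P5 *Hmgcs1* (0.13), *Msmo1* (0.19) and *Sc5d* (0.32) were then called higher as well. Single markers ranged from 2.51% (*Acta2*) to 354% (*Dcn*) of the MEF level in primed P15, so that this share is uncertain, and fibroblasts in other growth conditions than the MEF library were not measured. At P15 the share was similar in both states, and most of the 31 genes were lower in naïve than in primed cells. The subtraction thus took a larger part from the naïve level, which raises the fold. Whether fibroblast RNA had a part in these results was not tested.

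**Figure D4:**
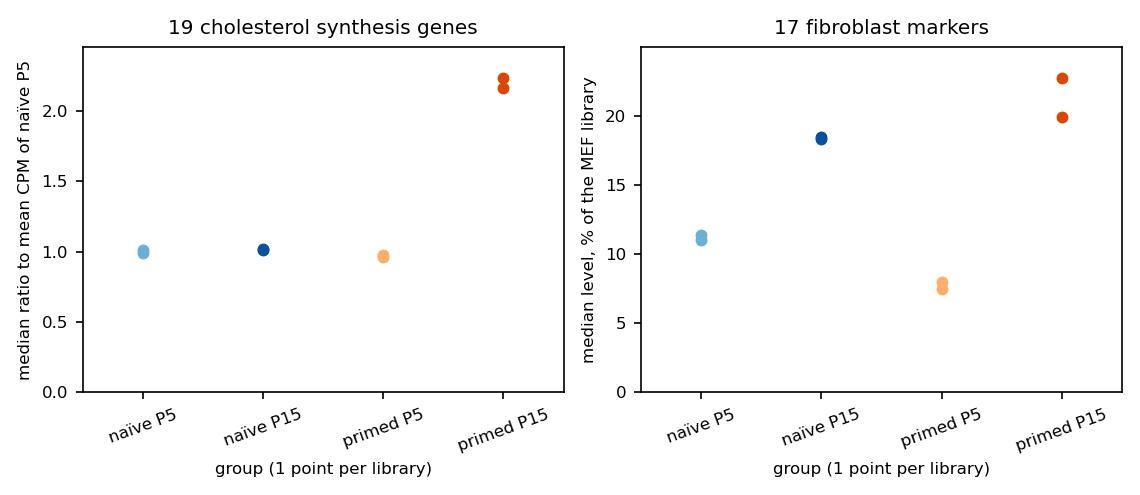
Left, median ratio of the 19 cholesterol synthesis genes to their mean in naïve P5 (y axis, from 0) in each naïve and primed library, and right, median level of 17 fibroblast markers as a percentage of the MEF library (y axis, from 0). The sterol genes stand at 2.16 and 2.23 in primed P15 and between 0.959 and 1.02 in all other libraries, while the markers are higher at P15 in both states.

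Genes around the pathway are given by their counts, to be read against the 31.2% of all genes called higher and 31.1% lower at P5, and 28.2% and 28.4% at P15. Of 8 genes that process SREBPs or sense sterols, 5 were called higher and 1 lower in primed cells at P5 and 4 higher and 2 lower at P15, with medians of 0.24 and 0.28 on the log2 scale. *Rnf145*, a ubiquitin ligase, was at 0.32 and 0.57, and *Erlin1*, a membrane scaffold, at −0.51 and −0.36, all called. Of 11 genes that use isoprenoids, 1 was higher and 5 lower at P5 and 2 higher and 4 lower at P15, with medians of −0.32 and −0.05. Both protein prenylation subunits named by the rule were lower, *Rabggtb* at −0.91 and −0.94 and *Fntb* at −0.91 and −0.77. With passage in primed cells, 1 of the 8 and 3 of the 11 rose, while 24.3% of all genes tested did.

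Of 14 genes of sterol uptake, transport, esters and efflux, 7 passed the test as higher and 4 as lower in primed cells at P5, and 6 were higher and 2 lower at P15, against the same shares of all genes. *Soat1*, which esterifies cholesterol for storage, was called at both passages (1.35 and 1.503), as were *Npc2*, a carrier in the lysosome (1.06 and 1.63), and *Vldlr*, a lipoprotein receptor (1.07 and 0.79). These 3 were named for the size of their change. The list also holds *Lbr*, a sterol reductase like *Tm7sf2*. *Lbr* was at 190 and 186 CPM in naïve P5 and 154 and 147 CPM in primed P5. At P15 it was at 169 and 179 CPM in naïve cells and 148 and 153 CPM in primed cells. Of all 14, 4 were called at least 2-fold higher at P5, against 0 of the 31 synthesis genes and 13.5% of all genes tested. Of 20 further genes of fatty acid synthesis and elongation, 19 were tested, with 8 higher and 3 lower at P5 and 11 higher and 2 lower at P15. *Acss2*, which makes acetyl-CoA from acetate, followed the sterol pattern: it was at 11.8 and 12.3 CPM in naïve P5, 9.84 and 9.65 CPM in primed P5, 11.9 and 8.57 CPM in naïve P15, and 23.1 and 20.2 CPM in primed P15. Its log2 fold change was −0.28 (not called) at P5 and 1.08 at P15. *Acacb*, the mitochondrial acetyl-CoA carboxylase, was lower in primed cells at both passages (−1.51 and −1.65), and *Hacd3*, of the elongation cycle, higher (0.74 and 0.74). Of 17 genes of fatty acid oxidation, 16 were tested, with 3 higher and 8 lower at P5 and 4 higher and 8 lower at P15, where 28.2% and 28.4% of all genes were called. Among them *Acadl* was higher (0.83 and 1.19), and *Acadm* (−0.68 and −0.68) and *Hadhb* (−0.86 and −0.57) lower, all called.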

How the data were processed

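RNA was measured in 9 libraries. Per the study's methods, the authors prepared poly(A) libraries (NEBNext Ultra), trimmed reads with Cutadapt, aligned them to mm10 with HISAT2, set to report several alignments of a read, and counted them with featureCounts on an Ensembl annotation. The deposited values are raw counts per gene. The annotation release, and how strand and reads with several alignments were treated in counting, are not given in the sources used here. A further 92 spike-in rows, all at 0, were left out. Groups come from the sample titles.

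Genes were matched by Ensembl ID to GENCODE M21 (GRCm38), which names 54079 of 54232. Tests used edgeR 4.0.16 in R 4.3.3 (quasi-likelihood, TMM, genes with at least 10 counts in at least 2 libraries), fitted on the 4 libraries compared or, for the difference between passages, on all 8. Calls are at an adjusted p under 0.01, with a fold of at least 2 where stated. SD is over the 2 libraries of a group, and the biological coefficient of variation was 3.26% at P5 and 4.79% at P15. A count of 0 allows up to 3 counts, 0.148 to 0.221 CPM (counting error only). Replicates differed by more than counting noise (chi-square per gene 2.10 to 3.28). The MEF library has no replicate and entered no test. Near copies are transcripts sharing at least 200 bases at 95% identity or more.

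The study used DESeq2 and required 2-fold change besides an adjusted p under 0.01. Here a call needs the adjusted p alone, counts with the fold are given beside it for the state comparisons, and DESeq2 (1.42.0) was an alternative, beside all 8 libraries in the fit, scaling by its size factors or by library size alone, testing without the low-count filter, a replicate block, subtraction of the feeder share and leaving out each library. A crossed block was chosen after seeing the data. All 31 genes are named. From each other list the 2 genes with the largest change called at each passage and a mean of at least 10 CPM are named, except 1 that is not reported here. *Zfp42*, *Pou5f1*, *Sox2*, *Klf4*, *Otx2*, *Acta2*, *Dcn*, *Lum*, *Mmp2* and *Lbr* were chosen after their values were seen. The genes and lists were chosen with earlier results of these data known. Code was tested on simulated data.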

Additional observations from a re-analysis of the deposited data

Results flagged for a closer look

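The difference between primed and naïve cells changed between P5 and P15 for most of these genes, by edgeR's test of the difference itself over the 8 stem cell libraries. In the mevalonate branch the differences of the log2 fold changes (P15 minus P5) were 1.35 for *Acat2*, 1.20 for *Hmgcs1*, 1.004 for *Mvk*, 0.86 for *Pmvk*, 1.28 for *Mvd*, 1.15 for *Idi1* and 1.80 for *Fdps*. From squalene to cholesterol they were 0.86 for *Fdft1*, 1.22 for *Sqle*, 1.34 for *Lss*, 1.28 for *Cyp51*, 1.41 for *Tm7sf2*, 1.26 for *Msmo1*, 1.42 for *Nsdhl*, 1.14 for *Hsd17b7*, 0.77 for *Ebp*, 0.90 for *Sc5d* and 0.72 for *Dhcr7*. Among the regulators they were 1.13 for *Insig1*, 0.33 for *Scap*, 0.61 for *Srebf1*, 0.43 for *Srebf2* and 0.69 for *Stard4*. Among the fatty acid genes they were 0.57 for *Acly*, 0.86 for *Acaca*, 1.17 for *Fasn*, 0.45 for *Elovl6*, 0.84 for *Scd1* and 1.30 for *Scd2*. Of the genes named from other lists, *Rnf145* (0.27), *Npc2* (0.59) and *Acss2* (1.37) also passed this test.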

How the results depend on the processing

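With library size alone, the P5 count of genes called higher was 16 (median 0.22), against 6810 of all 16482 genes tested. The medians were 1.17 at P15, −0.066 for passage in naïve cells, 0.89 for passage in primed cells and 0.89 for the difference between the passages. With naïve passage 3 were called lower, against 1059 of all 15683 genes tested. With the feeder share taken off, the medians were 1.34 at P15, −0.11 for naïve passage, 1.23 for primed passage and 1.33 for the difference. With naïve passage 4 were then called lower, against 679 of all 14940 genes tested. The low-count filter removed, 0 were called lower with naïve passage, against 323 of all 27381 genes tested. The replicate numbers pair nothing in the labels, and deviations of same-numbered libraries correlated at −0.12 to 0.09. With a replicate block, 1 gene was called higher and 4 lower with naïve passage, against 1353 and 1430 of all 15683 genes tested. At P5 it was 7 higher and 5 lower, against 5116 and 5109 of 16482. At P15 25 were higher, against 3895 of 15733. With primed passage 28 were higher, against 4280 of 15957, and for the difference 29, against 2055 of 16926. With crossed numbers at P15, 28 were called higher, against 4705 of all 15733 genes tested.

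With 1 library left out, which assumes that the lone sample varies like the other groups, medians ranged from −0.052 to 0.057 at P5, 1.02 to 1.13 at P15, −0.045 to −0.037 for naïve passage, 0.97 to 1.11 for primed passage and 0.95 to 1.09 for the difference. Counts higher and lower ranged from 7 to 8 and 5 to 6 at P5, 25 to 26 and 0 to 0 at P15, 0 to 0 and 0 to 1 for naïve passage (0 without naïve P5 replicate 2), 27 to 29 and 1 to 1 for primed passage, and 28 to 29 and 0 to 0 for the difference.

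Some values not called in the report changed sign. At P5 library size alone gave *Mvk* 0.15, *Mvd* 0.17, *Fdft1* 0.14, *Sqle* 0.10, *Lss* 0.14, *Cyp51* 0.085, *Tm7sf2* 0.030, *Hsd17b7* 0.020 and *Ebp* 0.049, and at P15 *Ggps1* 0.0073. The fit of all 8 libraries gave *Srebf2* −0.0016 at P5. With 1 library left out at P5, *Ggps1* ranged from −0.0083 to 0.10, *Srebf2* from −0.034 to 0.060, *Idi1* from −0.060 to 0.057, *Fdps* from −0.080 to 0.28 and *Lss* from −0.16 to 0.0044. For naïve passage the feeder share taken off gave *Hsd17b7* −0.14, *Dhcr7* 0.013, *Acly* 0.045, *Elovl6* 0.0057, *Scd1* −0.021 and *Scd2* −0.26 (adjusted p = 0.00594, called lower there with *Cyp51*, *Sc5d* and *Srebf2*), and 1 library left out gave *Mvd* −0.00097 to 0.063, *Fdft1* −0.069 to 0.050, *Hsd17b7* −0.014 to 0.087, *Dhcr7* −0.050 to 0.0096 and *Stard4* −0.11 to 0.027. The cause was not tested. Over all settings, 1753 single-gene values kept their sign and call, 30 gained a call and 16 lost one. At this depth, *Fdps*, with 1.73 to 8.03 CPM in stem cells, was the least precise.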
